A study of Mus musculus with 15 samples.

Results

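The 44 listed genes mark hepatic stellate cells or encode the extracellular matrix of the liver. They were taken by name: every probe set annotated with exactly 1 symbol of the list was kept, and 43 of the 44 had one, out of 19938 genes measured. Fbn1 was not analysed here, and Ctgf was measured under its current symbol Ccn2. The 43 comprised 10 markers of quiescent stellate cells, 10 of activated ones and 23 matrix genes.

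Liver RNA of 15 male mice, 7.5 months old with a spread of 2.5 weeks, was hybridized to 1 Affymetrix array each. Di(2-ethylhexyl) phthalate (DEHP), a plasticizer that activates the fatty acid receptor PPARα, was given by gavage in corn oil at 1150 mg/kg/day as 4 daily doses. The groups were 3 PPARα-null mice (129S4/SvJae-Pparatm1Gonz/J) on DEHP, 4 nulls on corn oil alone, 4 wild-type mice (129S1/SvlmJ) on DEHP and 4 wild types on corn oil alone. The null allele was carried in all cells of the animal, and nulls and wild types came from different 129 substrains, so genotype and substrain cannot be told apart. The title of the series speaks of PPARα and the xenobiotic receptor CAR. Here the comparisons ask how a set of non-parenchymal and matrix genes stood in the same livers.

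Hepatic stellate cells lie between hepatocytes and the sinusoidal endothelium. In the quiescent state they store vitamin A as retinyl esters and carry markers such as lecithin retinol acyltransferase (Lrat), reelin (Reln) and, in rodents, desmin (Des) and glial fibrillary acidic protein (Gfap). After injury they are activated by platelet-derived growth factor and transforming growth factor β, take on contractile proteins and deposit fibrillar collagen, while tissue inhibitors of metalloproteinases restrain its breakdown. Hepatocytes and endothelial cells add to the matrix too: hepatocytes, for example, secrete plasma fibronectin.

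Values below are log2 intensities of a gene's probe set, listed in the order of the animal numbers on the labels, which are KO-121, KO-122 and KO-123 (nulls on DEHP), KO-115 to KO-118 (nulls on corn oil), WT-56 to WT-59 (wild types on DEHP) and WT-52 to WT-55 (wild types on corn oil). The level of one probe set cannot be set against that of another. Each difference is on the log2 scale and carries its limma standard error, and its p was adjusted over the 19938 genes. Called, risen and fallen refer to an adjusted p under 0.05.

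The genotype labels were checked on Ppara itself, whose probe set read 9.11, 9.27 and 9.12 in nulls on DEHP and 8.99, 9.24, 9.10 and 9.01 in nulls on corn oil. It read 9.87, 9.60, 10.23 and 9.55 in wild types on DEHP and 9.64, 9.86, 9.88 and 9.73 in wild types on corn oil. Every null lay below every wild type. The difference was -0.64 ± 0.13 (fold 0.641, adjusted p = 0.00422) under DEHP and -0.69 ± 0.12 (fold 0.619, adjusted p = 0.00645) in corn oil, and no source used here says which part of the gene the probe set covers. The labelled tissue was not checked, since no other tissue was at hand to compare it with. Summed intensity of 10 hepatocyte genes ran from 99478 to 104119 in nulls on DEHP and 98215 to 103180 in nulls on corn oil. It ran from 92939 to 96646 in wild types on DEHP and 98386 to 100891 in wild types on corn oil. Every wild type on DEHP lay below every other animal in this sum. No detection calls were at hand, and 7 of the 43 members (Gfap, Des, Timp1, Lox, Loxl1, Col5a2 and Postn) had a mean below the median of all genes.

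The null animals differed among themselves. KO-115 had the highest value of the 4 nulls on corn oil in 34 of the 43 members and KO-118 the lowest in 25. KO-123 had the lowest value of the 3 nulls on DEHP in 36 of the 43, while KO-122 was highest in 25 and KO-121 in 17. The median deviation of the 43 from their 15-array means was 0.35 in KO-115, 0.08 in KO-116, 0.17 in KO-117 and -0.01 in KO-118, and 0.20, 0.22 and -0.03 in KO-121, KO-122 and KO-123. In every wild-type animal it was negative, from -0.19 to -0.11 on DEHP and from -0.15 to -0.05 on corn oil. Most members were high or low in the same animals, so they are not 43 independent readings.

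**Figure D1:**
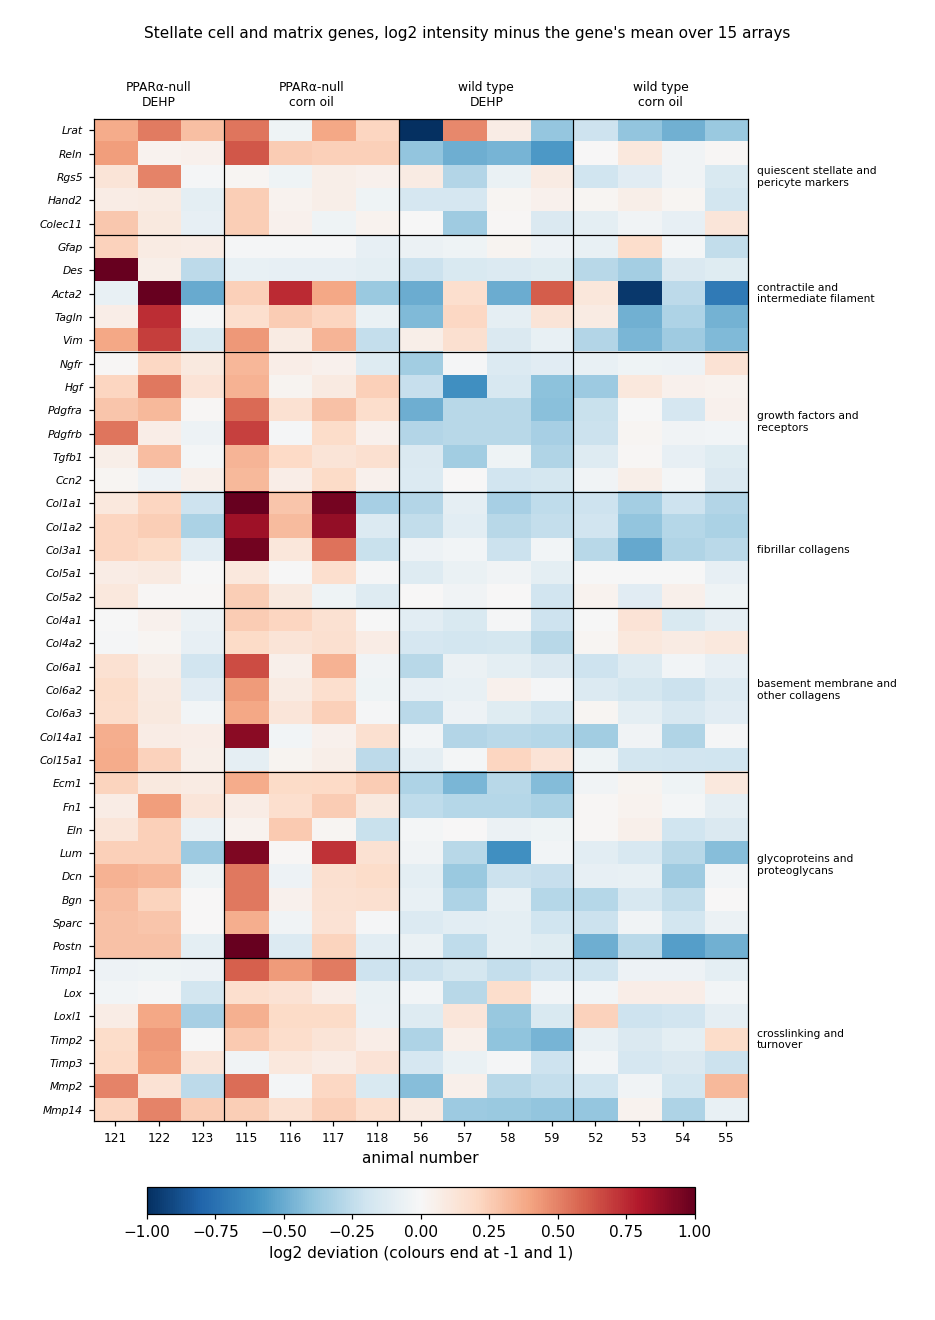
Log2 intensity of each of the 43 members as the deviation from its mean over 15 arrays (colour scale), by animal, with groups from left to right PPARα-null on DEHP, PPARα-null on corn oil, wild type on DEHP and wild type on corn oil. KO-115 is high across most rows (highest null on corn oil in 34 of 43), and KO-123 is low among the nulls on DEHP (lowest in 36 of 43).

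Under DEHP, 12 of the 43 stellate cell and matrix genes were higher in null than in wild-type livers and 0 were lower, where 10.7% of all genes were called in either direction (5.09% higher, 5.61% lower). The 12 were the stellate markers Reln, Ecm1 and Hgf, the receptors Pdgfra and Pdgfrb with the cytokine Tgfb1, and the matrix genes Fn1, Dcn, Sparc, Timp2, Timp3 and Mmp14. Of the 43 differences 42 were above 0, against 56.8% of all genes, and their median was 0.28, against 0.02 over all genes. In 20 members every null on DEHP lay above every wild type on DEHP, against 11.0% of all genes. The calls made up 3 of 10 quiescent markers, 3 of 10 activated markers and 6 of 23 matrix genes. Without KO-122 the count of members called was 6, and the count over all genes was 1019 in place of 2133. Without WT-59 the members' count was 7, with 1622 over all genes. Without KO-123 the members' median was 0.42, against 0.04 over all genes. Arrays read whole-liver RNA, so fewer cells of a type and less RNA per cell cannot be told apart.

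In corn oil the members also lay above wild type, but by amounts that mostly missed the threshold. Of the 43 members 1, Col1a2, was higher in nulls and 0 were lower, where 1.19% of all genes were called. All 43 differences were above 0, against 46.8% of all genes, with a median of 0.24 against -0.01 over all genes. At an unadjusted p below 0.05 there were 26, all higher in nulls, against 12.0% of all genes. In 16 members every null on corn oil lay above every wild type on corn oil, against 4.06% of all genes. By class the median difference was 0.14 in quiescent markers, 0.34 in activated markers and 0.27 in matrix genes. It was 0.69 in the 5 fibrillar collagens, which ran from 0.06 to 0.78. Under DEHP the order was the other way, with medians of 0.38, 0.31 and 0.28 in the 3 classes and 0.18 in the fibrillar collagens. The single call was lost in 7 of the 8 fits that left out 1 animal of these groups, for example at 0.65 (adjusted p = 0.142) without KO-115. Without KO-118 the count of calls was 6 (Col1a1, Col1a2, Col3a1, Col6a2, Timp1 and Vim), and the count over all genes was 230 in place of 237.

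**Figure D2:**
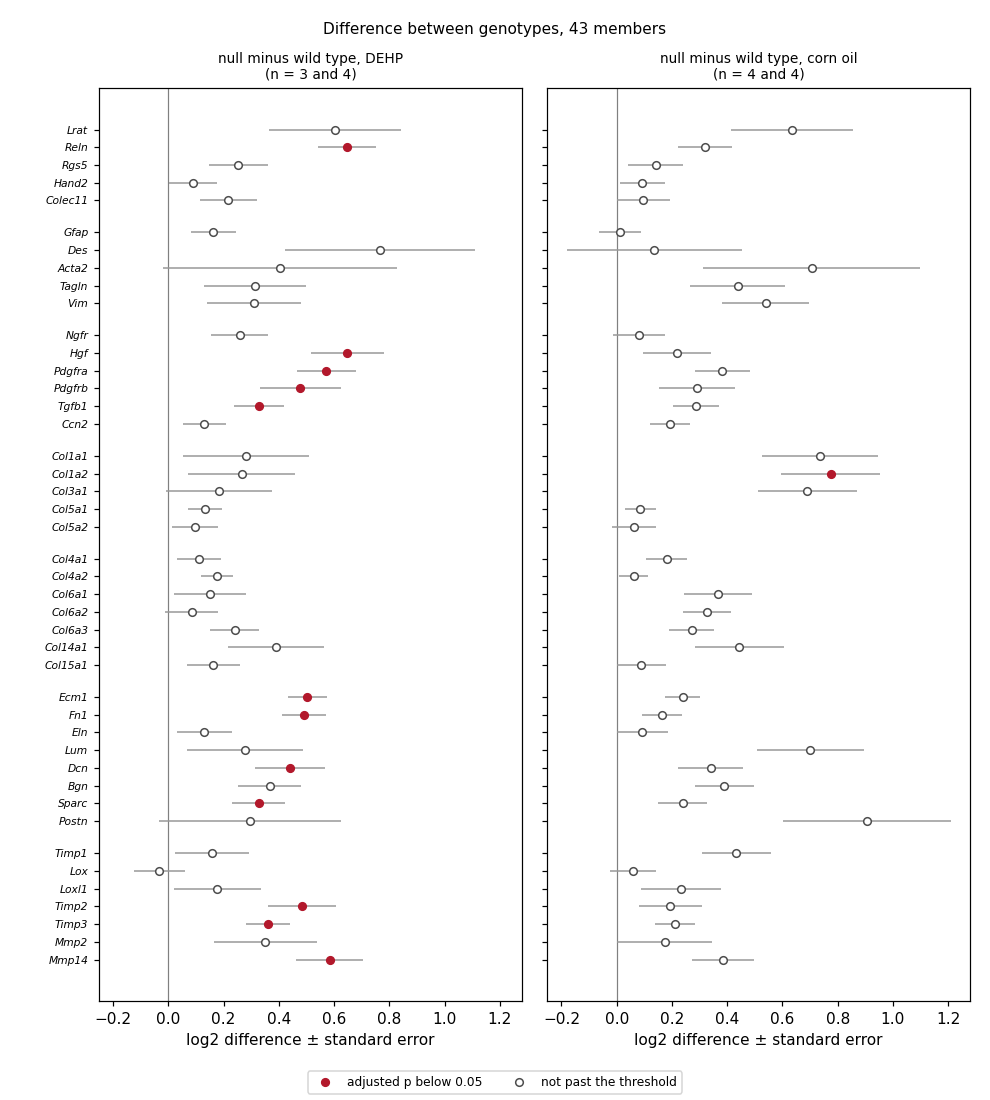
Log2 difference ± standard error between PPARα-null and wild type for the 43 members, under DEHP (left, n = 3 and 4) and in corn oil (right, n = 4 and 4), with filled points where the adjusted p was below 0.05. Nearly all points lie to the right of 0 (42 and 43 of 43), with 12 filled under DEHP and 1 in corn oil.

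With DEHP, 4 of 43 fell in wild-type mice (Ecm1, Col4a2, Reln and Fn1) and 0 rose, where 1.57% of all genes fell and 3.86% were called in either direction. Of all genes 2.29% rose. The 43 differences had a median of -0.05, against -0.02 over all genes, and 16 were above 0, against 45.0% of all genes. In 4 members every wild type on DEHP lay above every wild type on corn oil (6.1% of all genes) and in 6 below (5.77% of all genes). In null mice 0 of 43 were called by limma, where 0.471% of all genes were, and 5 of 43 reached an unadjusted p below 0.05 (2 up, 3 down), against 12.3% of all genes. There 18 of the 43 differences were above 0, against 54.6% of all genes. In the contrast of both DEHP effects, null minus wild type, limma called 0 of 43 members, where 0.898% of all genes were called, and 4 reached an unadjusted p below 0.05 (Fn1, Ecm1, Hgf and Reln), against 13.4% of all genes. That the falls were called in wild types and not in nulls therefore does not show that the genotypes responded differently. The comparisons share arrays (the wild types on DEHP enter both their own DEHP effect and the genotype difference under DEHP), so the same low values count in both. Without KO-118, 1 member (Timp1) was called for DEHP in nulls and 1 (Timp1 again) for the difference of effects. The counts over all genes in these fits were 21 in place of 94 and 138 in place of 179.

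**Figure D3:**
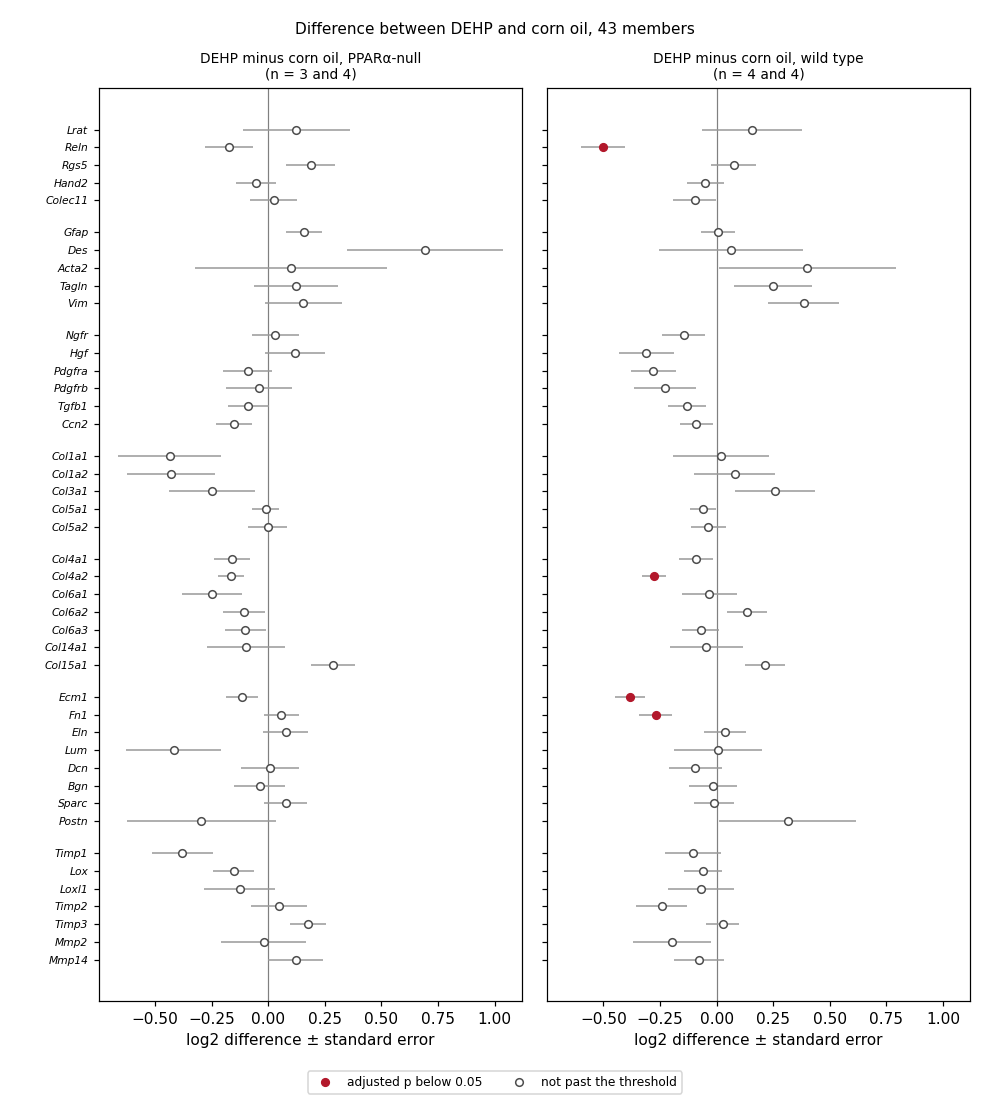
Log2 difference ± standard error between DEHP and corn oil for the 43 members in PPARα-null mice (left, n = 3 and 4) and wild-type mice (right, n = 4 and 4), with filled points where the adjusted p was below 0.05. The 4 filled points, Reln, Col4a2, Ecm1 and Fn1, are in wild-type mice and lie below 0, and null mice have 0 filled points.

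Markers of other liver cells were called in the same comparisons, where the share of all genes called was 10.7% between genotypes under DEHP, 1.19% between genotypes in corn oil, 3.86% for DEHP in wild types and 0.898% for the difference of the DEHP effects. Of 18 endothelial markers 11 were higher in nulls under DEHP and 0 lower (Stab2 0.49, Ehd3 0.53, Kdr 0.49 and Cdh5 0.40), and 0 were called in corn oil. With DEHP in wild types 5 of the 18 fell, among them Ehd3 by 0.54 and Stab2 by 0.33, and for 3 the difference of the DEHP effects was called (Ehd3, Stab2 and Fcgr2b). Their summed intensity ran from 5891 to 6298 in nulls on DEHP, 5333 to 5788 in nulls on corn oil, 4598 to 5119 in wild types on DEHP and 5346 to 6038 in wild types on corn oil. The sum of the members was 14856 to 18428 in nulls on DEHP, 15390 to 18161 in nulls on corn oil, 12101 to 12654 in wild types on DEHP and 13295 to 14056 in wild types on corn oil. Bright probe sets weigh most in such a sum. The 23 matrix genes summed to 8919 to 9517 in wild types on DEHP and 9865 to 10575 in wild types on corn oil. The 10 activated markers summed to 1138 to 1299 and 1091 to 1212 in the same groups. Mean intensities there were 4484 and 5407 for Fn1, 350 and 267 for Vim, and 171 and 128 for Acta2. The sums do not set the classes apart: the median log2 difference with DEHP in wild types was -0.03 in matrix genes and -0.08 in activated markers.

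Of 17 macrophage markers 3 were higher in nulls in corn oil and 0 lower (Lyz2 0.93, Ptprc 0.57 and Ccr2 0.61), all 17 differences were above 0, and 1 (Csf1r, 0.44) was called under DEHP, which is 5.88% of the list against 10.7% of all genes. Their summed intensity was 4006 to 4825 in nulls on DEHP, 3858 to 4785 in nulls on corn oil, 3019 to 4430 in wild types on DEHP and 3231 to 3737 in wild types on corn oil. Of 14 smooth muscle and portal fibroblast markers, 1 of which (Eln) is also a member, 1 was higher in nulls under DEHP, Mylk at 0.43, with sums of 1158 to 1384 in nulls on DEHP, 1093 to 1229 in nulls on corn oil, 1030 to 1131 in wild types on DEHP and 1095 to 1130 in wild types on corn oil. Of 10 hepatocyte markers 2 were higher in nulls under DEHP (Apob 0.32 and Hnf4a 0.33), 1 in corn oil (Pck1 0.74), and 1 fell with DEHP in wild types (Cps1, by 0.34). None of 7 cholangiocyte and 9 lymphoid markers was called in any of the 5 comparisons. The part of these cell types in the members' differences was not tested.

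**Figure D4:**
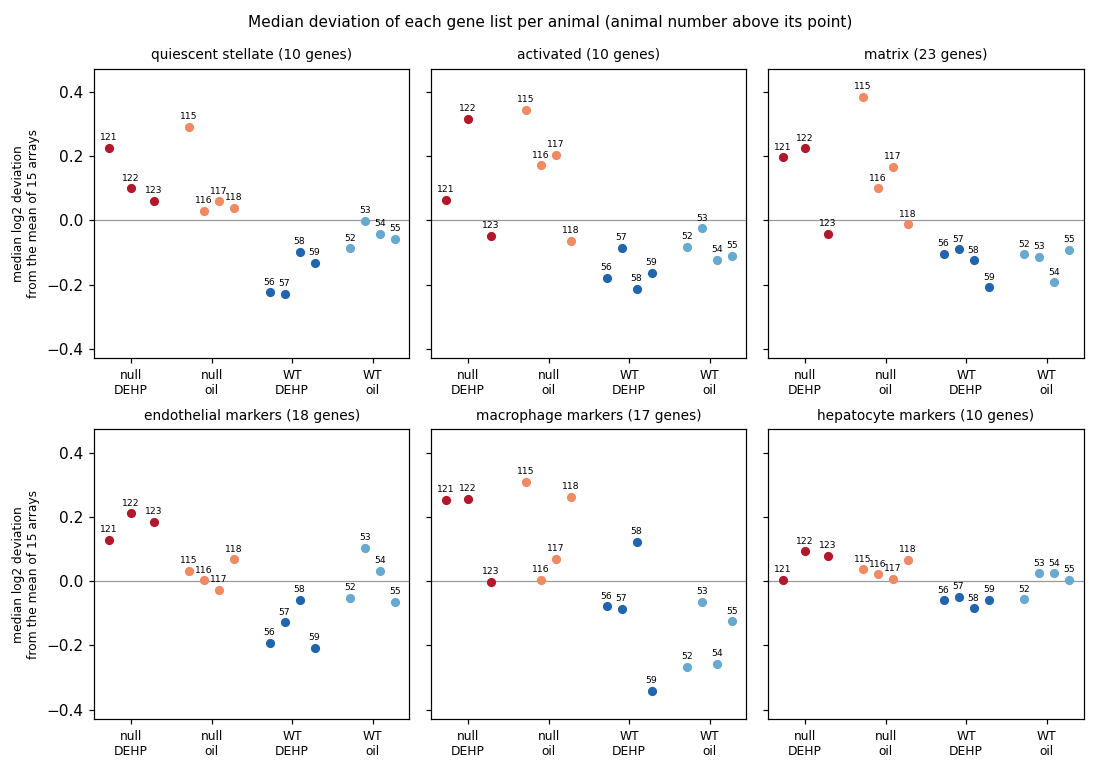
Median log2 deviation from the 15-array mean for quiescent, activated and matrix members and for endothelial, macrophage and hepatocyte markers, 1 point per animal, with groups PPARα-null on DEHP, PPARα-null on corn oil, wild type on DEHP and wild type on corn oil from left to right. Matrix members lie between -0.04 and 0.39 in the 7 nulls and between -0.21 and -0.09 in the 8 wild types, and the endothelial list runs from 0.13 to 0.21 in nulls on DEHP and from -0.21 to -0.06 in wild types on DEHP.

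Of the 10 quiescent markers, Reln and Ecm1 were called in 2 comparisons each, the genotype difference under DEHP and the DEHP effect in wild types. Reln encodes reelin, a large secreted glycoprotein that stellate cells make in the liver. It read 8.9997, 8.61 and 8.62 in nulls on DEHP, 9.20, 8.83, 8.82 and 8.82 in nulls on corn oil, 8.19, 8.09, 8.11 and 8.01 in wild types on DEHP and 8.58, 8.68, 8.54 and 8.59 in wild types on corn oil. The wild types on DEHP lay below all other animals, and all nulls on corn oil lay above all wild types on corn oil. Reln fell with DEHP in wild types by 0.50 ± 0.10 (fold 0.707, adjusted p = 0.00762). In nulls the same difference was -0.17 ± 0.10 (fold 0.886, adjusted p = 0.543). Null over wild type was 0.65 ± 0.10 (fold 1.57, adjusted p = 0.000963) under DEHP and 0.32 ± 0.10 (fold 1.25, adjusted p = 0.146) in corn oil. The calls in wild types on DEHP and between genotypes under DEHP held in each fit that left out 1 animal.

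Ecm1, which encodes extracellular matrix protein 1, a secreted glycoprotein, followed the same order of groups. Its values were 10.13, 10.01 and 9.99 in nulls on DEHP and 10.28, 10.10, 10.10 and 10.16 in nulls on corn oil. Wild types read 9.60, 9.45, 9.63 and 9.48 on DEHP and 9.87, 9.94, 9.86 and 10.02 on corn oil. The wild types on DEHP were again below all other animals, and KO-123, the lowest null, lay above 3 of the 4 wild types on corn oil. Ecm1 fell with DEHP in wild types by 0.38 ± 0.06 (fold 0.767, adjusted p = 0.00327), beside -0.12 ± 0.07 (fold 0.922, adjusted p = 0.539) in nulls. Nulls differed from wild types by 0.50 ± 0.07 (fold 1.42, adjusted p = 0.000287) under DEHP and 0.24 ± 0.06 (fold 1.18, adjusted p = 0.101) in corn oil.

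The start-site windows of Reln and Ecm1, the quiescent markers that fell with DEHP in wild types, are shown for the sequence around the genes that moved. They are RefSeq sequences of build GRCm38.p6 from 250 bases before to 50 after an annotated start, read 5′ to 3′ on the gene's own strand. Capitals mark matches on either strand to the letters TATAAA (the core promoter motif near many start sites), GGGCGG (the motif of Sp1 family factors), CCAAT (the motif of nuclear factor Y) or AGGTCA (the half-site of many nuclear receptors). The Reln window is chr5:22344656-22344955 on the minus strand and the Ecm1 window chr3:95739520-95739819 on the minus strand.
Reln: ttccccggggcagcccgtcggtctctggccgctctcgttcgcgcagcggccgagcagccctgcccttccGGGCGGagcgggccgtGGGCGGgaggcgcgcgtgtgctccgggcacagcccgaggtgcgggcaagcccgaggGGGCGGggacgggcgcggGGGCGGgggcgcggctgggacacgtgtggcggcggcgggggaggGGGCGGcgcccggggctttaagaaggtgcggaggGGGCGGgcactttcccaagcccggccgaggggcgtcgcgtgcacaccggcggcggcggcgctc
Ecm1: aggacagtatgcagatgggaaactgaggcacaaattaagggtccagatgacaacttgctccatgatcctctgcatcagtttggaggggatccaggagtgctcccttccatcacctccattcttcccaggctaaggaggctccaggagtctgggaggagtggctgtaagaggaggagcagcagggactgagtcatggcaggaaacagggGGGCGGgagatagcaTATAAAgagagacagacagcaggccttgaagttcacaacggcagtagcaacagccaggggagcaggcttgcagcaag
The Reln window held GGGCGG 6 times and none of the other motifs. In the Ecm1 window TATAAA began 27 bases before the start and GGGCGG 42 bases before it. Windows were at hand for 30 of the 43 members. For the 3 members with several windows only the first listed was used. Of these 30, 17 held GGGCGG (56.7%, against 35.7% of all 32851 windows), 12 held CCAAT (40.0% against 37.4%), 3 held TATAAA (against 13.6%) and 2 held AGGTCA (6.67% against 16.3%). These matches describe letters in a window and do not show binding.

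Lrat, the enzyme that esterifies retinol for storage, varied most in wild types on DEHP. It read 7.30, 7.45 and 7.23 in nulls on DEHP, 7.47, 6.88, 7.31 and 7.14 in nulls on corn oil, 5.93, 7.41, 7.003 and 6.54 in wild types on DEHP and 6.72, 6.53, 6.45 and 6.56 in wild types on corn oil. WT-56 was the lowest of all 15 animals and WT-57 lay among the nulls, while every null on corn oil was above every wild type on corn oil. Between genotypes the values were 0.60 ± 0.24 (fold 1.52, adjusted p = 0.129) under DEHP and 0.64 ± 0.22 (fold 1.55, adjusted p = 0.218) in corn oil, so neither passed the threshold. The value under DEHP was 0.34 (adjusted p = 0.311) without WT-56 and 0.83 without WT-57, where it was called (adjusted p = 0.0169). In corn oil Lrat was called in a fit on both corn oil groups alone (adjusted p = 0.0277).

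A further 5 quiescent markers were not called. Rgs5 (a regulator of G protein signalling found in pericytes), Hand2 (a transcription factor of stellate cells), Colec11 (a soluble collectin), Ngfr (the p75 neurotrophin receptor) and Gfap gave null over wild-type differences of 0.09 to 0.26 under DEHP and 0.01 to 0.14 in corn oil. None of the 5 passed the threshold in either comparison, with adjusted p from 0.132 to 0.63 under DEHP. For Ngfr and Gfap all 3 nulls on DEHP lay above every wild type on DEHP.

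Of the 6 growth factor and receptor genes, 4 were higher in nulls under DEHP, where 5.09% of all genes were. Hgf, the hepatocyte growth factor that stellate cells secrete towards hepatocytes, read 7.50, 7.81 and 7.42 in nulls on DEHP and 7.63, 7.31, 7.37 and 7.52 in nulls on corn oil. It read 7.05, 6.67, 7.12 and 6.87 in wild types on DEHP and 6.92, 7.38, 7.32 and 7.32 in wild types on corn oil. The groups did not overlap under DEHP, where KO-122 was highest and WT-57 lowest, whereas in corn oil they overlapped. Null minus wild type came to 0.65 ± 0.13 (fold 1.57, adjusted p = 0.00477) under DEHP and 0.22 ± 0.12 (fold 1.16, adjusted p = 0.517) in corn oil.

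The receptors of platelet-derived growth factor, which drive stellate cell proliferation and migration, were both called under DEHP. Pdgfra read 7.01, 7.05 and 6.74 in nulls on DEHP, 7.29, 6.88, 7.02 and 6.90 in nulls on corn oil, 6.24, 6.45, 6.45 and 6.31 in wild types on DEHP and 6.50, 6.72, 6.56 and 6.77 in wild types on corn oil. Nulls lay above wild types without overlap in both treatments, by 0.57 ± 0.11 (fold 1.49, adjusted p = 0.00274) under DEHP and 0.38 ± 0.10 (fold 1.3, adjusted p = 0.0863) in corn oil. Pdgfrb read 7.74, 7.27 and 7.16 in nulls on DEHP, 7.89, 7.19, 7.39 and 7.25 in nulls on corn oil, 6.91, 6.93, 6.93 and 6.88 in wild types on DEHP and 6.99, 7.22, 7.17 and 7.18 in wild types on corn oil. KO-121 and KO-115 stood above the other nulls. The Pdgfrb difference under DEHP was 0.48 ± 0.15 (fold 1.39, adjusted p = 0.0491), and it missed the threshold in 6 of the 7 fits without 1 animal of these groups, with the smallest difference and the highest adjusted p, 0.30 and 0.239, without KO-121. In corn oil the Pdgfrb difference was 0.29 ± 0.14 (fold 1.22, adjusted p = 0.417). Every wild type on DEHP was below every wild type on corn oil for both receptors, with differences of -0.28 (adjusted p = 0.15) for Pdgfra and -0.23 (adjusted p = 0.437) for Pdgfrb.

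Tgfb1, the profibrotic transforming growth factor β1, read 7.60, 7.86 and 7.52 in nulls on DEHP, 7.88, 7.74, 7.68 and 7.70 in nulls on corn oil, 7.40, 7.20, 7.50 and 7.24 in wild types on DEHP and 7.41, 7.55, 7.46 and 7.42 in wild types on corn oil. All nulls were above all wild types of the same treatment. The difference was 0.33 ± 0.09 (fold 1.25, adjusted p = 0.0288) under DEHP, lost in 3 of 7 fits without 1 animal (adjusted p up to 0.178), and 0.29 ± 0.08 (fold 1.22, adjusted p = 0.126) in corn oil. Ccn2, the connective tissue growth factor downstream of it, gave 0.13 ± 0.08 (fold 1.09, adjusted p = 0.361) and 0.19 ± 0.07 (fold 1.14, adjusted p = 0.266) in the same comparisons.

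Of the 5 contractile and intermediate filament genes 0 were called in any comparison on all 15 arrays. Across the comparisons the share of all genes called ran from 0.471% (DEHP in nulls) to 10.7% (genotype under DEHP). Leaving out KO-123 added calls of Des (1.20, adjusted p = 0.0299) and Vim between genotypes under DEHP, and a fit on both wild-type groups alone called Vim for DEHP. Acta2, the α-smooth muscle actin of activated stellate cells and vessel walls, read 7.32, 9.02 and 6.89 in nulls on DEHP, 7.63, 8.14, 7.78 and 7.02 in nulls on corn oil, 6.90, 7.56, 6.89 and 8.0 in wild types on DEHP and 7.50, 6.43, 7.13 and 6.68 in wild types on corn oil. The groups overlapped in every comparison, with KO-122 the highest of all 15 animals. Null over wild type was 0.40 ± 0.42 (fold 1.32, adjusted p = 0.655) under DEHP and 0.71 ± 0.39 (fold 1.63, adjusted p = 0.515) in corn oil, and without KO-122 the first of these turned to -0.24. Tagln, the actin-binding protein transgelin, read 6.52, 7.19 and 6.44 in nulls on DEHP, 6.62, 6.70, 6.67 and 6.38 in nulls on corn oil, 6.01, 6.66, 6.36 and 6.58 in wild types on DEHP and 6.53, 5.97, 6.14 and 5.98 in wild types on corn oil. Its groups overlapped too, with 0.31 ± 0.18 (fold 1.24, adjusted p = 0.353) under DEHP and 0.44 ± 0.17 (fold 1.35, adjusted p = 0.291) in corn oil. Without KO-122 the Tagln difference under DEHP was 0.076, and without WT-56 it was 0.18.

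Des, the muscle-type intermediate filament that marks rodent stellate cells, was high in a single animal. It read 7.85, 5.88 and 5.55 in nulls on DEHP, 5.74, 5.74, 5.74 and 5.72 in nulls on corn oil, 5.60, 5.66, 5.68 and 5.69 in wild types on DEHP and 5.54, 5.48, 5.67 and 5.69 in wild types on corn oil. KO-121 stood far above all others. The difference of 0.77 ± 0.34 (fold 1.7, adjusted p = 0.19) under DEHP became 0.06 (adjusted p = 0.807) without it. Vim, the vimentin of mesenchymal cells, was 0.54 ± 0.16 (fold 1.45, adjusted p = 0.127) in corn oil with no overlap, and 0.31 ± 0.17 (fold 1.24, adjusted p = 0.308) under DEHP.

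The fibrillar collagens form the cross-banded fibres of the interstitial matrix. Of the 5, 1 was called, between genotypes in corn oil, where 1.19% of all genes were. Type I collagen is made of chains from Col1a1 and Col1a2. Col1a2 read 7.41, 7.44 and 6.88 in nulls on DEHP, 8.05, 7.51, 8.07 and 7.06 in nulls on corn oil, 6.95, 7.09, 6.92 and 6.95 in wild types on DEHP and 7.01, 6.80, 6.91 and 6.88 in wild types on corn oil. KO-115 and KO-117 were the highest of all animals, KO-118 was just above the highest wild type on corn oil, and the nulls on DEHP overlapped with the wild types on DEHP. Nulls differed from wild types by 0.78 ± 0.18 (fold 1.71, adjusted p = 0.0474) in corn oil and 0.26 ± 0.19 (fold 1.2, adjusted p = 0.474) under DEHP. The difference under DEHP was 0.17 without KO-122 and 0.45 without KO-123.

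Col1a1 had the same animals at its top. It read 7.24, 7.35 and 6.92 in nulls on DEHP, 8.13, 7.41, 8.09 and 6.80 in nulls on corn oil, 6.84, 7.04, 6.80 and 6.88 in wild types on DEHP and 6.93, 6.79, 6.92 and 6.84 in wild types on corn oil. KO-118 lay within the wild-type range, and the difference in corn oil, 0.74 ± 0.21 (fold 1.67, adjusted p = 0.119), became 1.004 (adjusted p = 0.00217) without that animal and 0.56 (adjusted p = 0.282) without KO-115. Col3a1, the type III chain found with type I in fibres, read 7.15, 7.12 and 6.82 in nulls on DEHP, 7.89, 7.04, 7.48 and 6.70 in nulls on corn oil, 6.88, 6.90, 6.71 and 6.90 in wild types on DEHP and 6.65, 6.42, 6.63 and 6.66 in wild types on corn oil. All nulls on corn oil were above all wild types on corn oil, by 0.69 ± 0.18 (fold 1.61, adjusted p = 0.0837), and all wild types on DEHP were above all wild types on corn oil, by 0.26 ± 0.18 (fold 1.2, adjusted p = 0.526). Col5a1 and Col5a2, the minor chains within the same fibres, differed by 0.06 to 0.13 between genotypes and passed no threshold.

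The windows of Col1a2 and Col3a1, 2 fibrillar collagens whose nulls on corn oil lay above wild type without overlap, follow in the same form, with capitals for the same motifs on either strand. The Col1a2 window is chr6:4505368-4505667 and the Col3a1 window chr1:45311288-45311587, both on the plus strand of GRCm38.p6.
Col1a2: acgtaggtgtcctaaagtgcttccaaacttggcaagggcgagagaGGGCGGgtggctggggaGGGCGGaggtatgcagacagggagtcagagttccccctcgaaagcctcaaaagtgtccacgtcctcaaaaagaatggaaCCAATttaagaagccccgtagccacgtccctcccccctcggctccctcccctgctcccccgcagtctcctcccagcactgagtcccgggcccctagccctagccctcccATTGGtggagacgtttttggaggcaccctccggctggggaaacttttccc
Col3a1: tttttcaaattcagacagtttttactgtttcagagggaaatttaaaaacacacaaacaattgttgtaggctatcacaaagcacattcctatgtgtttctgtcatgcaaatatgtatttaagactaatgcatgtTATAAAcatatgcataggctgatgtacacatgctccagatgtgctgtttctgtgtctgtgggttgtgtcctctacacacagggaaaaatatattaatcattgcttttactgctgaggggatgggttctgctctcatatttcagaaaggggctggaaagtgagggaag
The Col1a2 window held GGGCGG 2 times and CCAAT on each strand, with the forward one starting 109 bases before the start. ATTGG at the start is CCAAT read on the other strand. The Col3a1 window held TATAAA 1 time and none of the other motifs.

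Of the 7 basement membrane and other collagens, 1 was called, for DEHP in wild types, where 3.86% of all genes were (1.57% fell). Col4a2, a chain of the type IV collagen network, read 6.90, 6.93 and 6.83 in nulls on DEHP, 7.10, 7.04, 7.07 and 6.98 in nulls on corn oil, 6.74, 6.73, 6.74 and 6.63 in wild types on DEHP and 6.93, 7.02, 6.99 and 7.02 in wild types on corn oil. In both genotypes every animal on DEHP lay below every animal on corn oil. Col4a2 fell with DEHP in wild types by 0.28 ± 0.05 (fold 0.824, adjusted p = 0.00699), and in nulls the difference was -0.16 ± 0.06 (fold 0.892, adjusted p = 0.223). Between genotypes it was 0.18 ± 0.06 (fold 1.13, adjusted p = 0.064) under DEHP and 0.06 ± 0.05 (fold 1.04, adjusted p = 0.721) in corn oil. Its partner chain Col4a1 gave -0.09 ± 0.07 (fold 0.939, adjusted p = 0.618) with DEHP in wild types, and its groups overlapped.

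Col4a1 and Col4a2 lie head to head, and their windows overlap by 78 bases at chr8:11312777-11312854. The annotated starts that define these windows are 21 bases apart on opposite strands. On the plus strand the Col4a1 start lies past the Col4a2 start, so the 5′ ends of the genes overlap. Other annotated starts were not compared. The Col4a2 window, chr8:11312555-11312854 on the plus strand of GRCm38.p6, is shown to place the shared stretch, which alone is in capitals here.
Col4a2: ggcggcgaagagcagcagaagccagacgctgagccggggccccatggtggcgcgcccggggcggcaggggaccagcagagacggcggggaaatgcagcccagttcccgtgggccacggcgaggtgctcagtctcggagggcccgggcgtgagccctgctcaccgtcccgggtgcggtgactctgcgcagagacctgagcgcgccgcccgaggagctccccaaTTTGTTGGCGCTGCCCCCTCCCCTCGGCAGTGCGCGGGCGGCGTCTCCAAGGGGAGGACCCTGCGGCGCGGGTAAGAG
The shared stretch runs from base 223 to base 300 of this window. The pair thus shares a start region while 1 of the 2 passed the threshold, and whether their DEHP effects differ was not tested.

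The other collagens of this role were not called. Col6a1, Col6a2 and Col6a3, which form the beaded microfilaments of type VI collagen, gave null over wild-type differences of 0.37, 0.33 and 0.27 in corn oil (adjusted p = 0.197, 0.098 and 0.146). Col14a1, which binds to fibre surfaces, read 9.66 in KO-115 and from 8.73 to 8.92 in the other nulls on corn oil, with a difference of 0.44 ± 0.16 (fold 1.36, adjusted p = 0.243). Col15a1, a collagen of basement membrane zones, gave 0.29 ± 0.10 (fold 1.22, adjusted p = 0.205) with DEHP in nulls and 0.21 ± 0.09 (fold 1.16, adjusted p = 0.234) in wild types.

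Of the 8 glycoprotein and proteoglycan genes 4 were higher in nulls under DEHP (5.09% of all genes), namely Ecm1, Fn1, Dcn and Sparc. Fn1, whose product is both a plasma protein from hepatocytes and a matrix protein, read 12.49, 12.84 and 12.54 in nulls on DEHP, 12.49, 12.58, 12.67 and 12.51 in nulls on corn oil, 12.16, 12.13, 12.13 and 12.10 in wild types on DEHP and 12.43, 12.45, 12.40 and 12.32 in wild types on corn oil. The 4 groups stood apart except for the nulls, which overlapped with each other. Between genotypes the values were 0.49 ± 0.08 (fold 1.41, adjusted p = 0.00084) under DEHP and 0.16 ± 0.07 (fold 1.12, adjusted p = 0.369) in corn oil. With DEHP, Fn1 fell in wild types by 0.27 ± 0.07 (fold 0.83, adjusted p = 0.049), a call that was lost in all 8 fits without 1 animal of these groups (adjusted p up to 0.136, without WT-53). The difference of the DEHP effects was 0.33 ± 0.11 (fold 1.25, adjusted p = 0.164), the lowest adjusted p of the 43 in that comparison.

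Dcn, the collagen-binding proteoglycan decorin, read 10.93, 10.92 and 10.55 in nulls on DEHP, 11.11, 10.54, 10.75 and 10.78 in nulls on corn oil, 10.49, 10.22, 10.37 and 10.36 in wild types on DEHP and 10.51, 10.52, 10.23 and 10.56 in wild types on corn oil. Nulls were above wild types under DEHP without overlap, KO-123 by the least, and the difference was 0.44 ± 0.13 (fold 1.36, adjusted p = 0.0349). In corn oil the Dcn difference was 0.34 ± 0.12 (fold 1.27, adjusted p = 0.214). Sparc, the collagen-binding glycoprotein osteonectin, read 9.58, 9.57 and 9.29 in nulls on DEHP, 9.65, 9.26, 9.44 and 9.28 in nulls on corn oil, 9.15, 9.19, 9.19 and 9.09 in wild types on DEHP and 9.08, 9.25, 9.10 and 9.23 in wild types on corn oil. KO-123 was again the lowest null on DEHP but above every wild type on DEHP, and the difference was 0.33 ± 0.10 (fold 1.25, adjusted p = 0.0388). In corn oil Sparc differed by 0.24 ± 0.09 (fold 1.18, adjusted p = 0.26), also without overlap. Both calls under DEHP were close to the threshold: Dcn missed it in 5 and Sparc in 6 of the 7 fits without 1 animal, with adjusted p up to 0.16 and 0.169.

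Biglycan (Bgn), lumican (Lum), elastin (Eln) and periostin (Postn) passed no threshold. Bgn, a relative of decorin, was closest, with 0.37 ± 0.11 (fold 1.29, adjusted p = 0.0509) under DEHP and 0.39 ± 0.11 (fold 1.31, adjusted p = 0.1) in corn oil and no overlap in either. Lum, another collagen-binding proteoglycan, gave 0.70 ± 0.19 (fold 1.63, adjusted p = 0.107) in corn oil. Postn, a matricellular protein of remodelling tissue, gave 0.91 ± 0.30 (fold 1.87, adjusted p = 0.201) in corn oil, where KO-115 read 7.18 and the other nulls from 5.18 to 5.55.

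Of the 7 crosslinking and turnover genes 3 were higher in nulls under DEHP (5.09% of all genes), the protease gene Mmp14 and the inhibitor genes Timp2 and Timp3. Mmp14, the membrane-bound metalloproteinase that activates Mmp2, read 8.61, 8.89 and 8.65 in nulls on DEHP, 8.64, 8.55, 8.63 and 8.56 in nulls on corn oil, 8.48, 8.03, 8.02 and 7.995 in wild types on DEHP and 8.01, 8.43, 8.08 and 8.32 in wild types on corn oil. All nulls were above all wild types of the same treatment, with WT-56 near them. Null minus wild type came to 0.58 ± 0.12 (fold 1.5, adjusted p = 0.00538) under DEHP and 0.38 ± 0.11 (fold 1.3, adjusted p = 0.127) in corn oil. Mmp2, gelatinase A, gave 0.35 ± 0.19 (fold 1.28, adjusted p = 0.286) under DEHP and overlapped.

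Timp3, an inhibitor bound to the matrix, read 8.002, 8.22 and 7.93 in nulls on DEHP, 7.77, 7.91, 7.88 and 7.94 in nulls on corn oil, 7.64, 7.74, 7.79 and 7.60 in wild types on DEHP and 7.78, 7.63, 7.66 and 7.59 in wild types on corn oil. The nulls on DEHP lay above the wild types on DEHP, by 0.36 ± 0.08 (fold 1.28, adjusted p = 0.00781), and without KO-122 the adjusted p was 0.0619. In corn oil the Timp3 difference was 0.21 ± 0.07 (fold 1.16, adjusted p = 0.218). Timp2, an inhibitor that also takes part in the activation of Mmp2, read 7.19, 7.44 and 7.002 in nulls on DEHP, 7.27, 7.18, 7.13 and 7.07 in nulls on corn oil, 6.70, 7.06, 6.60 and 6.54 in wild types on DEHP and 6.93, 6.86, 6.90 and 7.18 in wild types on corn oil. It was called under DEHP at 0.48 ± 0.12 (fold 1.4, adjusted p = 0.018) although WT-57 lay above KO-123, and it missed the threshold in 2 of 7 fits without 1 animal (adjusted p up to 0.122). In corn oil the Timp2 difference was 0.19 ± 0.11 (fold 1.14, adjusted p = 0.542).

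Timp1, the inhibitor induced in activated stellate cells, read 4.41, 4.41 and 4.41 in nulls on DEHP, 5.05, 4.88, 4.98 and 4.25 in nulls on corn oil, 4.24, 4.28, 4.22 and 4.26 in wild types on DEHP and 4.25, 4.41, 4.41 and 4.36 in wild types on corn oil. Of the nulls on corn oil 3 stood above all other animals, and KO-118 was level with the wild types. The probe set was dim (mean log2 4.46, below the median of 5.96 over all genes), and its height above background is not known. Null over wild type in corn oil was 0.43 ± 0.12 (fold 1.35, adjusted p = 0.12), and it was 0.61 (adjusted p = 6.19e-05) without KO-118. With DEHP in nulls it was -0.38 ± 0.13 (fold 0.768, adjusted p = 0.227), and -0.56 (adjusted p = 0.00163) without KO-118. The crosslinking enzymes Lox and Loxl1 were not called, and Lox, at -0.03 ± 0.09 (fold 0.977, adjusted p = 0.886) under DEHP, was the only member with a genotype difference below 0.

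**Figure D5:**
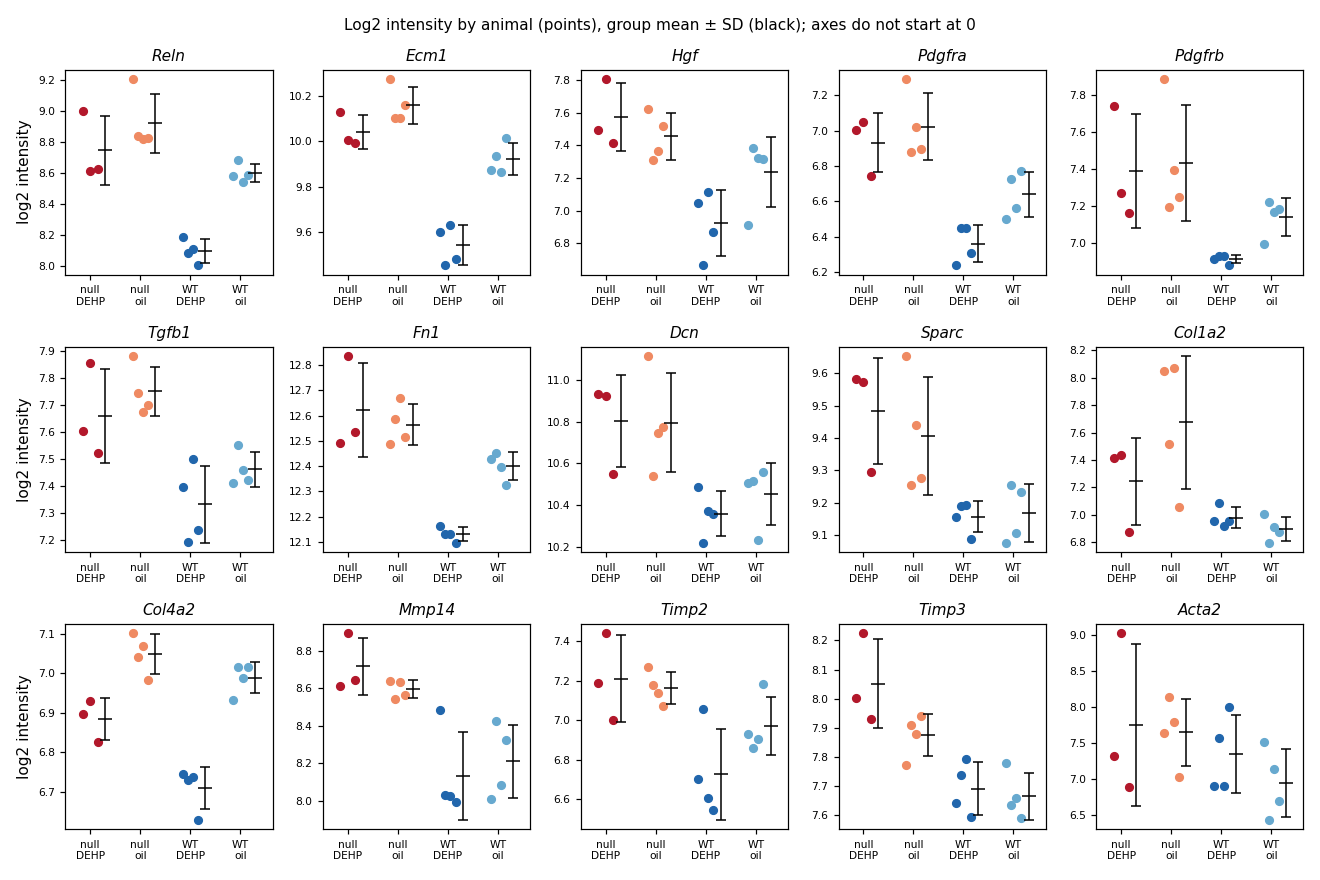
Log2 intensity of 15 members by group, PPARα-null on DEHP, PPARα-null on corn oil, wild type on DEHP and wild type on corn oil from left to right, with 1 point per animal and black bars for the group mean ± SD (n = 3, 4, 4 and 4). For Reln and Ecm1 the 4 wild types on DEHP lie below all other animals, while Col1a2 is spread from 7.06 to 8.07 among the nulls on corn oil.

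Genes that work beside the members were counted in 6 further lists, of which 0% to 22.2% were called between genotypes under DEHP, against 10.7% of all genes. Under DEHP 4 of 18 other basement membrane genes were higher in nulls and 0 lower, namely Col18a1 (0.33, adjusted p = 0.0048), the perlecan gene Hspg2 (0.23), nidogen Nid1 (0.37) and the laminin chain Lamb1 (0.33). Of 28 other matrix genes 4 were higher and 0 lower (Prelp, Col27a1, Vtn and Thbs2, at 0.21 to 0.42), a share of 14.3%. Of 24 other TGFβ pathway genes 4 were higher and 0 lower: the co-receptors Tgfbr3 (0.39) and Eng (0.38), the receptor Tgfbr2 (0.35) and the induced matrix protein Tgfbi (0.50). In the 17 genes of the PDGF and HGF pathways 2 were higher, the HGF activator Hgfac (0.45) and the inhibitor of its activation Spint2 (0.44), a share of 11.8%. Of 16 collagen processing genes 2 were higher, the folding enzymes Ppib (0.42) and P4hb (0.37), and 1 was lower, Crtap (-0.26). Of 21 matrix proteases 0 were called by limma under DEHP, with 2 at an unadjusted p below 0.05, and 14 differences were above 0 and 7 below.

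With DEHP in wild types, where 3.86% of all genes were called, Col18a1 fell by 0.35 (adjusted p = 0.00513), Col27a1 by 0.29 (adjusted p = 0.00848) and Hgfac by 0.54 (adjusted p = 0.000328). From the TGFβ list 3 of 24 fell, the activin subunit Inhba by 0.54, Eng (which also stands in the endothelial list) by 0.29 and Tgfbr3 by 0.24. The collagen prolyl hydroxylase subunit P4ha1 rose by 0.30 (adjusted p = 0.0219). For the difference of the DEHP effects (0.898% of all genes called) 1 gene of these 6 lists was called, Hgfac at 0.56 ± 0.10 (adjusted p = 0.0186). In corn oil (1.19% of all genes called) the called genes of the lists were the proteases Mmp12 (2.73 ± 0.40, adjusted p = 0.00128) and Adamts5 (0.89 ± 0.18, adjusted p = 0.0232) and again P4ha1 (0.35, adjusted p = 0.0173), all higher in nulls. Mmp12, the macrophage metalloelastase, and Adamts5, an aggrecanase, were 2 of 21 proteases.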

How the data were processed

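Liver total RNA (300 ng per animal, Affymetrix WT kit, per the labels' protocols) was measured on 15 arrays, 1 per animal as the labels number them. P-values therefore measure the spread between these animals. The deposited values are linear intensity values per probe set, already on a common scale (1.77 to 23336.67, array medians 44.4 to 47.53). No source used here states their normalization, any batches or the genome build. Arrays of the same group correlated at 0.988 to 0.992 across probe sets and arrays of different groups at 0.983 to 0.992. These correlations therefore do not set the groups apart, and the number of arrays limits the precision.

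Log2 was taken without further normalization. Of 35494 probe sets 21789 had 1 symbol, 1621 several and 12084 none. A further rule picked the probe set of highest mean log2 for each of 999 genes that had more than 1, giving 19938 genes. Each member had 1 probe set. Groups came from the labels, and limma 3.58.1 in R 4.3.3 estimated the 4 group means together on the 15 arrays, with 11 residual and 4.677 prior degrees of freedom. In each of 5 contrasts p was adjusted for all genes (Benjamini-Hochberg), and 0.05 was the threshold. The fit was tested on simulated data with known changes. Alternatives were quantile normalization, leaving out genes with a mean below the median, 16 added before log2, the mean of a gene's probe sets, fits on the groups compared and leaving out each animal.

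The members and lists were chosen with earlier results of these data known. Every array's value is given for members past the threshold and for 13 fixed markers, and of other lists up to 4 called genes per contrast are named. Tables were handled in Python 3.11.15 with pandas 2.3.3 and numpy 2.4.6, and figures drawn with matplotlib 3.10.9.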

Additional observations from a re-analysis of the deposited data

Results flagged for a closer look

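In 129 groups of 4 animals, 1 for each member and each group other than the nulls on DEHP, the gap between an end value and its nearest neighbour was compared with the group's range. In 13 of them it exceeded the share of the range that Dixon's test allows at 95%, and chance alone flags about 1 in 20 groups. Among nulls on corn oil, KO-115 was far above the others in Reln at 9.20. KO-118 read 5.06 in Gfap and each of the other 3 read 5.13, and those equal values put the gap at the whole range however small it is. Among wild types on DEHP, WT-56 was high in Col14a1 at 8.73 and in Mmp14 at 8.48, WT-58 was low in Col3a1 at 6.71 and WT-59 low in Col4a2 at 6.63. Among wild types on corn oil, WT-55 was low in Hand2 at 6.40 and in Col5a1 at 6.4997 and high in Ngfr at 6.55. WT-52 was low in Hgf at 6.92 and high in Col15a1 at 6.25, WT-53 was low in Col3a1 at 6.42 and WT-54 low in Dcn at 10.23. WT-56 lay on the side of the nulls in Mmp14, where the genotype difference under DEHP was 0.70 (adjusted p = 0.000831) without it.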

How the results depend on the processing

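No paired analysis was possible because no animal number is shared between groups. Higher calls in nulls under DEHP numbered 12 in the fit reported and 8 to 15 under the 5 settings other than leaving out animals, and 6 to 15 without 1 animal. Reln, Ecm1, Hgf, Pdgfra, Fn1 and Mmp14 remained called in all 7 of those fits. A fit on both DEHP groups alone lost Pdgfrb, Tgfb1, Sparc and Timp2. The median ran from 0.19 to 0.42 without 1 animal, and 41 to 43 members lay above 0 in both genotype comparisons. In corn oil the count of calls was 0 after quantile normalization, where 265 of all genes were called. With dim genes left out it was 5 of 36, where 313 of 9969 genes were called, and without 1 animal it was 0 to 6. It was 0 to 1 for DEHP in nulls and for the difference of effects, and 3 in every fit for DEHP in wild types, without 1 animal. A fit on both wild-type groups alone gave 5 for DEHP, Vim added. Counts over all genes moved too. Without 1 animal, 2133 for genotype under DEHP became 1019 to 1950 (lowest without KO-122) and 237 in corn oil became 159 to 230. For DEHP in wild types 770 became 433 to 614 (433 without WT-53, 472 without WT-54, 473 without WT-55), for DEHP in nulls 94 became 9 (without KO-122) to 168 (without KO-116), and for the difference of effects 179 became 61 (without WT-53) to 299 (without KO-116). For DEHP in nulls 94 genes became 161 after quantile normalization, 427 with dim genes left out, 287 with the offset and 1 in a fit on both null groups alone. For the difference of effects 179 became 570 with dim genes left out and 418 with the offset, and for genotype under DEHP 2133 became 1331 in a fit on both DEHP groups alone. Single differences were followed for 21 of the 43 members in the 5 comparisons, 105 in all, and for the other 22 members only as counts and medians. In 18 of the 105, all uncalled, the sign turned in at least 1 setting, with adjusted p of 0.699 or more wherever it did. Without 1 animal, DEHP in nulls ran from -0.54 to 0.53 for Acta2, -0.078 to 0.13 for Dcn, -0.019 to 1.13 for Des, -0.050 to 0.12 for Fn1, -0.15 to 0.0044 for Pdgfra, -0.22 to 0.11 for Pdgfrb, -0.11 to 0.26 for Tagln and -0.068 to 0.15 for Timp2, with -0.074 for Dcn and -0.041 for Fn1 after quantile normalization. DEHP in wild types ran from -0.031 to 0.050 for Col1a1, -0.073 to 0.42 for Lrat, -0.041 to 0.018 for Sparc and -0.0071 to 0.064 for Timp3. The difference of effects ran from -0.94 to 0.13 for Acta2, -0.081 to 1.07 for Des, -0.30 to 0.20 for Lrat, -0.36 to 0.011 for Tagln and -0.057 to 0.11 for Tgfb1, and genotype under DEHP from -0.24 to 0.83 for Acta2. The cause of these changes was not tested. With no detection calls, how far the dim members stand above background is not known.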

Other observations

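The handling of vitamin A, which stellate cells store and hepatocytes take up and process, was counted in 23 genes. Of all genes 3.86% were called for DEHP in wild types (2.29% rose), 0.471% for DEHP in nulls and 0.898% for the difference of effects. Between genotypes 10.7% of all genes were called under DEHP and 1.19% in corn oil. With DEHP 4 of the 23 rose in wild types and 0 fell: the retinol dehydrogenases Rdh16 (0.92 ± 0.10, adjusted p = 7.9e-05) and Rdh11 (0.72 ± 0.14), the dehydrogenase/reductase Dhrs4 (0.50 ± 0.08, adjusted p = 0.00236) and the retinaldehyde dehydrogenase Aldh1a1 (0.30 ± 0.06). In nulls 1 rose, Aldh1a1 (0.34 ± 0.06, adjusted p = 0.0329). For Rdh16 the DEHP effects of the genotypes differed by -0.71 ± 0.15 (adjusted p = 0.0316), null minus wild type. Under DEHP Dhrs4 (-1.02) and Rdh16 (-0.75) were lower in nulls and the retinoid X receptor gene Rxra higher (0.31). These are 13.0% of the list, against 10.7% of all genes. In corn oil Dhrs4 was lower in nulls (-0.60, adjusted p = 0.00067).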
